A study of Mus musculus with 9 samples.

Results

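Abca5, Abca6, Abca9, Abca8a and Abca8b form a row of 5 ATP-binding cassette (ABC) transporter genes on mouse chromosome 11, and their RNA levels were examined in cultured calvarial cells labelled IRE1KO or WT. The 5 genes were taken by symbol from a count table of 25860 genes. They were chosen with the IRE1KO to WT difference of Abca5 and Abca6 already known, so that levels and differences of the 5 genes are given as a description and support no claim. The study compared 5 libraries labelled IRE1KO with 4 labelled WT. All came from the flat skull bones of mice 2 to 4 days old, and in both groups the cells carried Osx1-Cre, in which the Sp7 (osterix) promoter, active in cells on the way to becoming osteoblasts, drives Cre recombinase. The cells were sorted by flow cytometry, grown with 10% serum and harvested at 90% confluence, and 1 library was made from the pooled cells of 3 to 5 pups. IRE1, the product of Ern1, is a stress sensor of the endoplasmic reticulum. The labels used here give no further allele, strain or sex for either group. A library stands for a pool of pups, so differences between single animals are not visible.

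ABCA proteins are large membrane proteins that use ATP to move lipids across or between membranes. ABCA1, the best known, loads cholesterol and phospholipid onto apolipoproteins, and ABCA3 fills the lamellar bodies of lung cells with surfactant lipid. The genes studied here belong to a branch that grew by tandem duplication in mammals. ABCA5 resides in lysosomes and late endosomes and has been linked to cholesterol handling, whereas the roles of ABCA6, ABCA8 and ABCA9 are less well defined, and mouse Abca8a and Abca8b correspond to a single human gene, ABCA8.

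In GENCODE M21 on GRCm38 the row runs from 109932190 to 110337716 on chromosome 11, a span of 405.5 kb, and its near edge lies 3.44 Mb from the end of Ern1. All 5 genes are on the minus strand, one behind the other. Abca8b (ENSMUSG00000020620) occupies 109932190 to 109995845 and Abca8a (ENSMUSG00000041828) 110025634 to 110095978. Abca9 (ENSMUSG00000041797) follows from 110100749 to 110168196, then Abca6 (ENSMUSG00000044749) from 110176820 to 110251776 and Abca5 (ENSMUSG00000018800) from 110269369 to 110337716.

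The start regions of 4 of the 5 genes were found in the RefSeq promoter table (GRCm38.p6), each holding 250 bases before and 50 bases after the start. They are shown because the region of Abca5 differs in base composition from the others. Abca6, the member with the largest difference between the groups, had no entry. Whether base composition bears on the difference between IRE1KO and WT was not tested. Capitals mark matches to CACGTG, the E-box that USF and TFEB can bind, and to GGGCGG or its reverse complement CCGCCC, the GC box of SP factors. The regions are chr11:110337667-110337966 for Abca5, chr11:110168104-110168403 for Abca9, chr11:110095888-110096187 for Abca8a and chr11:109995796-109996095 for Abca8b, each read from the minus strand.
Abca5: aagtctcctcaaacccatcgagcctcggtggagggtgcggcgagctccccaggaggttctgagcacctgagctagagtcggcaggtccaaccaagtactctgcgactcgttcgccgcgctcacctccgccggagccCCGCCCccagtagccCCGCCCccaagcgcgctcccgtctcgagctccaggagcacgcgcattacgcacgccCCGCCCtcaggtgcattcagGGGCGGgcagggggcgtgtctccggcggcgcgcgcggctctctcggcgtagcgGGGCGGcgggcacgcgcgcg
Abca9: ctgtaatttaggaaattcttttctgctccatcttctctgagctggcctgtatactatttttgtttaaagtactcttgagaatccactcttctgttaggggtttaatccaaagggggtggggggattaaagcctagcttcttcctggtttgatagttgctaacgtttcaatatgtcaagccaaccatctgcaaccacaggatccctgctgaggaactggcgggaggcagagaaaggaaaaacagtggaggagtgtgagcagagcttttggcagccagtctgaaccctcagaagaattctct
Abca8a: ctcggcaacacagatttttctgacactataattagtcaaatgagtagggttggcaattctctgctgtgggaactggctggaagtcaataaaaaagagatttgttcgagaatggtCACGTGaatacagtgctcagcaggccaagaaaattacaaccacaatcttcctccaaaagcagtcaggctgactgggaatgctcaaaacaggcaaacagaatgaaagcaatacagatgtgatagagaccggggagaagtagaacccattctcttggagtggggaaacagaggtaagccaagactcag
Abca8b: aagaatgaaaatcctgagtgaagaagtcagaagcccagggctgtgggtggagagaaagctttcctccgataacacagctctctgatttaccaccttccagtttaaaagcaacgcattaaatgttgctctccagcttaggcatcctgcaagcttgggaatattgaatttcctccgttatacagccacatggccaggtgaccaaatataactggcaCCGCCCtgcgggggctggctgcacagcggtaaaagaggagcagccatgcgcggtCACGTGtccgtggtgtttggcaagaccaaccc

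The Abca5 region held 40 CG dinucleotides at 72.3% G and C, a number of CG reached by 3.91% of 32851 start regions of the same length. The Abca9 region held 2, that of Abca8a 4 and that of Abca8b 10, and the median over all start regions was 7. GC boxes were matched 5 times in Abca5, once in Abca8b and not in the windows of Abca9 and Abca8a, and 35.7% of all start regions held at least 1. CACGTG occurred once in Abca8a, 136 bases before the start, and once in Abca8b, 18 bases after it, both times within the longer word GGTCACGTG. The E-box was present in 7.15% and the longer word, picked out after the sequences were read, in 1.11% of all start regions. On both strands, CCAAT (the NF-Y box), TATAAA and GTAAACA (a FOXO element) had no match in these 4 windows, against 37.4%, 13.6% and 3.65% of all start regions. CCACG, a core shared by XBP1 and ATF6 sites, was matched once in Abca8b and in 32.8% of all start regions. It overlaps no E-box. The matches describe letters in these windows and show no binding.

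Close relatives can share reads, so the coding sequences were aligned in pairs. Abca8a and Abca8b were the most similar, with 74.4% identical bases over 4823 aligned positions, followed by Abca9 with Abca8a (70.9%) and with Abca8b (70.3%). Abca6 shared 66.0% with Abca9, and Abca5 between 59.0% and 60.2% with each of the others. The longest identical run, 97 bases, joined Abca8a and Abca8b across exons 15 and 16 of 39. It is printed with 30 bases on either side because a read that lies wholly within it cannot be told apart between these genes. Capitals mark the 6 bases that differ. The spliced stretches span chr11:110068817-110069479 for Abca8a and chr11:109964980-109966785 for Abca8b on the minus strand of GRCm38.
Abca8a: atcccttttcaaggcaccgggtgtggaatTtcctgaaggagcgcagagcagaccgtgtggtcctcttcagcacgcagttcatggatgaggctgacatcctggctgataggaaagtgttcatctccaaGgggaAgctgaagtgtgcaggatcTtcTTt
Abca8b: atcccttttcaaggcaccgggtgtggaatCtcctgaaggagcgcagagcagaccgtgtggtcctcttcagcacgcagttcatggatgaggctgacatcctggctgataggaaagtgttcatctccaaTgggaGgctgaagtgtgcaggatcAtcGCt

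Words of 50 bases that also occur in transcripts of another gene made up 1.64% of those of Abca8a and 2.45% of those of Abca8b. The shares were 0.243% for Abca6 and 0.162% for Abca9, which shared words with each other, and no such word was found in Abca5. The read length is not given in the sources used here. In the annotation, Gm11697, an antisense gene within Abca8b, was the single gene overlapping a member, and it had 0 counts in every library. Words were matched on either strand. Of the 181 shared words of Abca8b, 105 occurred in Abca8a and 105 in Gm11697, some of them in both, so its share is not due to Abca8a alone.

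Total counts ran from 18784636 to 22028075 per library. Levels are given in counts per 1000000 reads of tested genes after TMM scaling (CPM), and a floor of 3 counts came to 0.136 to 0.16 per 1000000 of a library's total. WT library 4 stood apart on the first principal component, which held 49.2% of the variance, at 50.4 against -21.6 to 12.6 for the other libraries. No 2 libraries of a group were alike to within sampling noise: chi-square per gene was 2.01 to 10.7 within IRE1KO and 16.6 to 123.8 within WT. Ern1 itself was at 49.8 to 55.8 CPM in IRE1KO and 41.5 to 54.2 CPM in WT, a log2 fold change of 0.17 ± 0.076 SE (0.24 without WT library 1). Ern1 RNA was thus not lower in IRE1KO, and a total per gene does not show whether part of the gene is missing. The osteoblast lineage markers differed among themselves. Sp7 was at 15.6 to 21.2 CPM in IRE1KO and 13.6 to 24.6 CPM in WT, while Bglap, which marks mature osteoblasts, stayed at or below 0.192 CPM in every library. Of 9 tested genes of that list none passed in edgeR or limma voom, beside 0.634% and 0.117% of all tested genes. In edgeR 4 had an unadjusted p under 0.05, beside 16.5% of all tested genes, and DESeq2 called 3, beside 3.77%. Ibsp, Phex and Spp1, genes of the mineralizing matrix, had log2 fold changes of -2.06 ± 0.58, -1.29 ± 0.41 and -0.78 ± 0.26 SE, against 0.25 ± 0.079 SE for Sparc.

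Genotypes were compared with edgeR's quasi-likelihood test over 13712 genes, and genes with a Benjamini-Hochberg adjusted p under 0.05 are called changed. All 5 members passed the filter on low counts. Abca5 was higher and Abca6 lower in IRE1KO past this threshold, while Abca9, Abca8a and Abca8b did not pass. This makes 2 of 5 members beside 0.634% of all tested genes (0.255% higher and 0.379% lower), a count from which nothing is read because the genes were chosen on this contrast. For the same 2 genes the IRE1KO and WT libraries did not overlap, as was so for 6.93% of all tested genes (3.65% with IRE1KO higher and 3.28% with IRE1KO lower).

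Abca5, the lysosomal member, was at 94.9, 95.6, 98.0, 96.3 and 92.1 CPM in IRE1KO libraries 1 to 5. In WT libraries 1 to 4 it was at 67.3, 48.0, 46.3 and 51.8 CPM. Every IRE1KO library was above every WT library, and the lowest of the former was 1.37 times the highest of the latter. The mean was 95.4 ± 2.18 CPM (SD, n = 5) with IRE1KO against 53.4 ± 9.58 CPM (SD, n = 4) with WT, a log2 fold change of 0.84 ± 0.10 SE or a 1.79-fold higher level in IRE1KO. WT library 1 was the WT library closest to IRE1KO, and without it the log2 fold change was 0.97. The direction stayed the same after any single library was left out, but the call was kept only without WT library 1 or WT library 4 (0.82). It was lost without IRE1KO libraries 1 to 5 (0.84, 0.84, 0.83, 0.83 and 0.85), WT library 2 (0.79) or WT library 3 (0.78).

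Abca6, which lies next to Abca5 and points the same way, had the largest difference of the row. Its level was 0.874, 0.973, 0.956, 1.28 and 0.767 CPM in IRE1KO libraries 1 to 5, from 18, 19, 18, 28 and 16 reads. In WT libraries 1 to 4 it was at 7.30, 5.08, 9.04 and 16.6 CPM, from 143, 99, 179 and 317 reads. All IRE1KO libraries were well above the floor of 3 counts, and the lowest WT library was 3.98 times the highest IRE1KO library. The mean over WT was 9.50 ± 4.98 CPM (SD, n = 4) and that over IRE1KO 0.969 ± 0.19 CPM (SD, n = 5), a log2 fold change of -3.28 ± 0.34 SE, or a 9.72-fold higher level in WT. In absolute size this fold change was at the 99.9th percentile of tested genes. It ranged from -3.49 to -2.87 when single libraries were left out. The call was lost without IRE1KO library 1 (-3.25), IRE1KO library 2 (-3.28), IRE1KO library 5 (-3.21) or WT library 3 (-3.31).

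**Figure D1:**
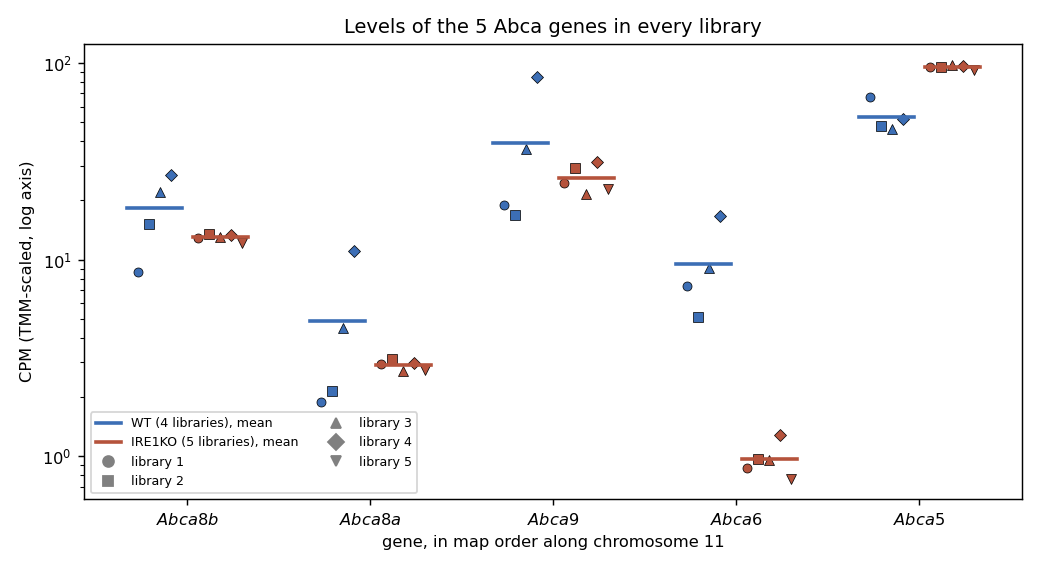
Level of the 5 Abca genes in CPM on a log axis, in map order, with 1 marker per library (shape gives the library number) and horizontal lines for group means. Abca6 separates the genotypes in one direction and Abca5 in the other, whereas the WT libraries of Abca8b, Abca8a and Abca9 spread to both sides of the IRE1KO libraries.

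Abca9 was at 24.5, 29.3, 21.6, 31.4 and 22.9 CPM in IRE1KO libraries 1 to 5 and at 18.9, 16.9, 36.4 and 85.0 CPM in WT libraries 1 to 4. WT libraries 1 and 2 lay below all IRE1KO libraries and WT libraries 3 and 4 above them. The means were 25.9 ± 4.21 CPM (SD, n = 5) and 39.3 ± 31.7 CPM (SD, n = 4), with a log2 fold change of -0.60 ± 0.44 SE. Without WT library 4 the value was 0.11 ± 0.26 SE, on the other side of 0.

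Abca8a was at 2.96, 3.12, 2.71, 2.96 and 2.73 CPM in IRE1KO libraries 1 to 5. In WT libraries 1 to 4 it was at 1.89, 2.16, 4.50 and 11.03 CPM, with the same 2 libraries below and the same 2 above IRE1KO as for Abca9. The log2 fold change was -0.75 ± 0.47 SE, and 0.023 ± 0.26 SE without WT library 4.

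Abca8b was at 12.9, 13.5, 13.0, 13.3 and 12.1 CPM in IRE1KO libraries 1 to 5, the narrowest relative spread of the row after Abca5 (coefficients of variation of 4.24% and 2.28%, n = 5). In WT libraries 1 to 4 it was at 8.63, 15.2, 22.0 and 27.0 CPM. WT library 1 was below the IRE1KO libraries, and WT libraries 2, 3 and 4 were above them. The log2 fold change was -0.49 ± 0.27 SE. It passed the threshold without WT library 1 (-0.72) and was -0.24 without WT library 4.

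Between WT libraries the highest level was 5.84 times the lowest for Abca8a, 5.02 times for Abca9, 3.26 times for Abca6, 3.13 times for Abca8b and 1.45 times for Abca5. Between IRE1KO libraries these ratios were 1.15, 1.45, 1.66, 1.12 and 1.06. WT library 4 had the highest level of Abca8a, Abca9, Abca6 and Abca8b, but the second highest WT level of Abca5. Summed levels of marker lists also differed between these libraries. The 12 fibroblast markers summed to 708, 881, 1287 and 1942 CPM in WT libraries 1 to 4 and to 1129 to 1579 CPM in IRE1KO. Of these 12 genes, 7 were highest in WT library 4. The WT sums rose in the same order as Abca8b, and so did those of the Schwann cell and glial list and the adipocyte list. The 12 osteoblast lineage markers summed to 31306 to 58809 CPM in WT and 41513 to 46322 CPM in IRE1KO, again with 7 highest in WT library 4.

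For 2 marker lists the groups did not overlap, as for Abca6. The 9 Schwann cell and glial markers summed to 21.1 to 87.4 CPM in WT and 13.0 to 19.0 CPM in IRE1KO, and 8 of them were highest in WT library 4. Sox10, which defines this lineage, was at 0 to 0.973 CPM in IRE1KO and at 0.970, 4.57, 6.11 and 9.83 CPM in WT libraries 1 to 4. The 8 adipocyte markers summed to 81.6 to 142.3 CPM in WT and 56.4 to 63.9 CPM in IRE1KO. Of this Lpl alone gave 46.2 to 90.5 and 27.6 to 38.6 CPM. Cidec was at 0 counts in every library and Adipoq at no more than 0.505 CPM. Called lower in edgeR were 3 of 5 tested adipocyte and 1 of 6 tested Schwann cell and glial markers, beside 0.379% of all tested genes. So were 1 of 10 tested fibroblast and 1 of 6 tested endothelial markers, and no marker of any list was called higher. DESeq2, which tested more genes, called 4, 7, 2 and 1 in these lists, beside 3.77%, and limma voom called none. The sums of the mural, chondrocyte, macrophage and endothelial lists overlapped between the groups (2381 to 5127 against 3529 to 3829 CPM, 1392 to 1442 against 722 to 1424 CPM, 164 to 345 against 245 to 334 CPM and 12.5 to 33.3 against 16.1 to 19.9 CPM, WT first), and Cldn5, an endothelial gene, had 0 counts in every library. For the chondrocyte list, IRE1KO library 4 alone reached the WT sums. All 9 tested chondrocyte markers had a negative log2 fold change (median -0.31), beside 51.6% of all tested genes. Of these 9, 3 had an unadjusted p under 0.05, beside 16.5%. Negative values were found for 5 of 8 mural, 5 of 6 endothelial and 3 of 9 macrophage markers. The part of these cell types in the levels of the Abca genes was not tested. In such bulk libraries fewer cells of a type and less RNA per cell cannot be told apart.

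Ratios of counts within a library do not depend on how libraries are scaled. Abca8a and Abca9 kept a narrow ratio: there were 9.45 to 12.6 Abca8a reads per 100 Abca9 reads in IRE1KO and 10.0 to 13.0 in WT, although Abca9 itself varied 5.02-fold between WT libraries. Abca8b was looser, with 42.4 to 60.3 reads per 100 Abca9 reads in IRE1KO and 31.8 to 89.7 in WT, and again the groups overlapped. Abca6 stood apart from both. It had 3.56, 3.32, 4.43, 4.07 and 3.35 reads per 100 Abca9 reads in IRE1KO libraries 1 to 5 and 38.6, 30, 24.8 and 19.5 in WT libraries 1 to 4. All WT libraries were thus above all IRE1KO libraries, those with low Abca9 included. Relative to Abca5 the separation was wider, at 0.833 to 1.33 Abca6 reads per 100 Abca5 reads in IRE1KO and 10.6 to 32.0 in WT.

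**Figure D2:**
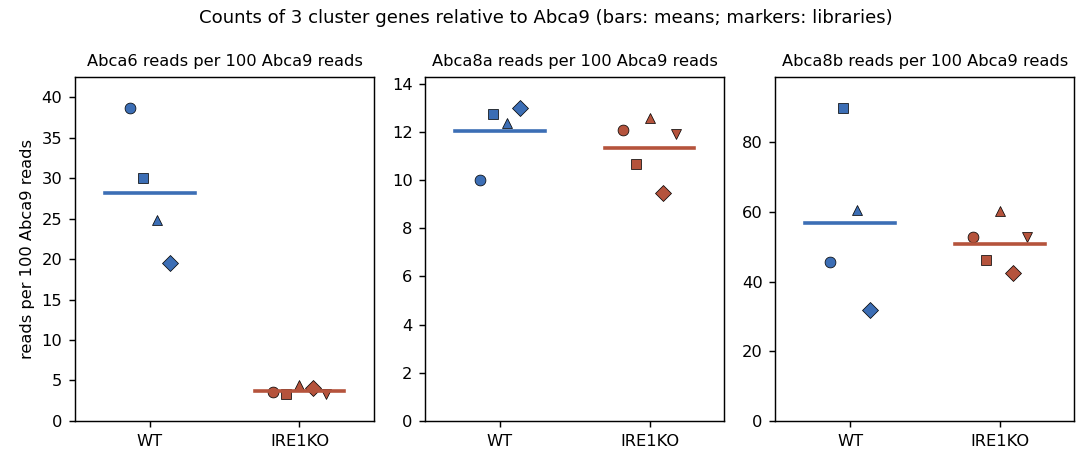
Reads of Abca6, Abca8a and Abca8b per 100 reads of Abca9 on linear axes from 0, with 1 marker per library and lines for group means. For Abca6 the WT libraries lie at 19.5 to 38.6 and the IRE1KO libraries at 3.32 to 4.43, while the groups overlap for Abca8a and Abca8b.

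Levels between genes were compared per kb of exon, using the union of annotated exons. In IRE1KO the order was Abca5 (8.34 ± 0.19 CPM per kb, SD, n = 5), Abca9 (3.22 ± 0.523), Abca8b (1.75 ± 0.074), Abca8a (0.462 ± 0.0278) and Abca6 (0.18 ± 0.0352), the same in all 5 libraries and with no overlap of ranges between neighbours in the order. In WT, Abca9 (4.89 ± 3.94 CPM per kb, SD, n = 4) and Abca5 (4.67 ± 0.838) exchanged places between libraries and do not differ beyond their spread. Abca8b (2.45 ± 1.08) and Abca6 (1.76 ± 0.923) also overlapped, Abca6 being above Abca8b in WT library 1 alone. Abca8a (0.78 ± 0.678) was the lowest in each of the 4, though its range over libraries overlapped that of Abca6. Abca6 thus took 9.77% to 13.0% of the summed level per kb of the row in WT and 1.08% to 1.60% in IRE1KO. Abca5 took 19.2% to 53.3% in WT and 56.8% to 63.0% in IRE1KO. The summed level itself overlapped between the groups, at 9.64 to 23.6 CPM per kb in WT and 13.1 to 14.8 in IRE1KO. Per kb of the longest coding sequence, the mean of Abca5 was above that of Abca9 in WT as well (10.8 ± 1.94 and 8.08 ± 6.51 CPM per kb).

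**Figure D3:**
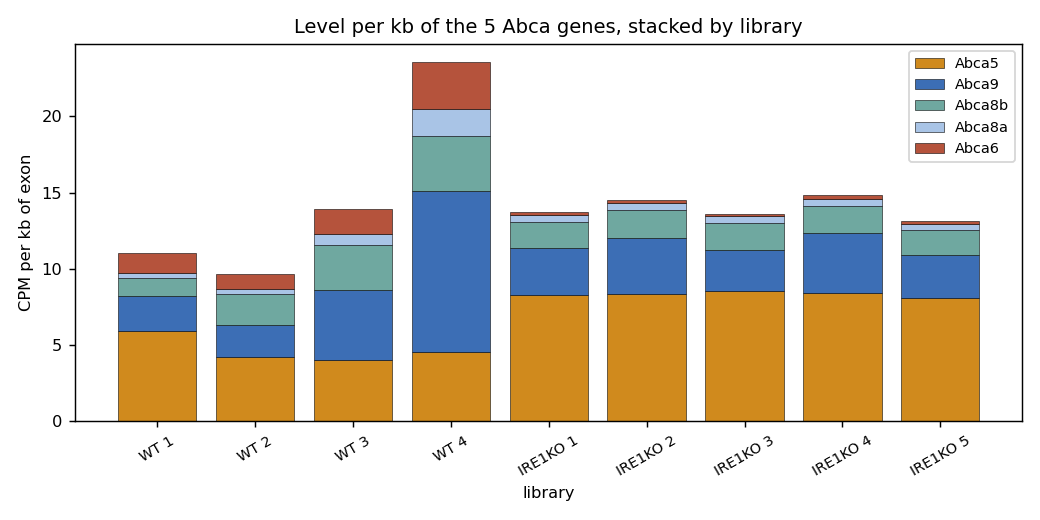
Stacked level of the 5 Abca genes in CPM per kb of exon for each library, WT on the left and IRE1KO on the right. The IRE1KO bars are alike, at 13.1 to 14.8 in all and with a thin Abca6 segment, while the WT bars run from 9.64 to 23.6 and WT library 4 has the tallest Abca9 segment.

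The other genes near the row differed in both directions. Within 1 Mb of its ends 11 other genes were tested, and 1 of them passed, beside 0.634% of all tested genes. Neighbouring genes are not independent. Their median log2 fold change was -0.011, against -0.0050 over all tested genes. In absolute size, Slc16a6, Map2k6, Fam20a and Gm11696 lay between the 90.5th and the 95.9th percentile of tested genes, and 5 of the other 7 below the 25th. The gene that passed was Fam20a, which encodes a pseudokinase of the secretory pathway that assists FAM20C and lies 209.9 kb from the row on the side of Ern1. Fam20a was at 39.6, 49.0, 42.1, 37.8 and 42.6 CPM in IRE1KO libraries 1 to 5 and at 30.1, 31.4, 30.01 and 26.8 CPM in WT libraries 1 to 4. The groups did not overlap, and Fam20a rose by 0.51 ± 0.079 SE on the log2 scale (edgeR adjusted p = 0.0436). Its call was kept without WT library 1 (0.52) or WT library 4 (0.47) and lost without any 1 of the other libraries, with log2 fold changes of 0.45 to 0.55.

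Slc16a6, a gene of the monocarboxylate transporter family, was the other neighbour whose groups did not overlap, at 4.17 to 5.38 CPM in IRE1KO and 2.05 to 4.03 CPM in WT. This makes 2 of 11 tested neighbours with IRE1KO wholly above WT, beside 3.65% of all tested genes. Its log2 fold change of 0.69 ± 0.20 SE did not pass (edgeR adjusted p = 0.153), but did without WT library 1 (0.92). On the far side, Map2k6, a kinase that activates p38 and the nearest tested gene to Abca5 at 61.4 kb, had a log2 fold change of -0.67 ± 0.27 SE. It was highest in WT library 4, at 8.62 CPM, as were Abca8b, Abca8a, Abca9 and Abca6. Wipi1, which acts in autophagy, differed by 0.017 ± 0.036 SE and Gna13, a G protein subunit, by 0.025 ± 0.040 SE on the log2 scale. Values for Amz2, a metallopeptidase, and Kcnj2, a potassium channel, were -0.014 ± 0.066 SE and -0.011 ± 0.31 SE. Prkar1a, a regulatory subunit of protein kinase A, was at 0.11 ± 0.050 SE, Arsg, a lysosomal sulfatase, at -0.26 ± 0.15 SE, Rgs9, a regulator of G protein signalling, at -0.041 ± 0.34 SE and the transcript Gm11696 at -0.42 ± 0.25 SE.

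**Figure D4:**
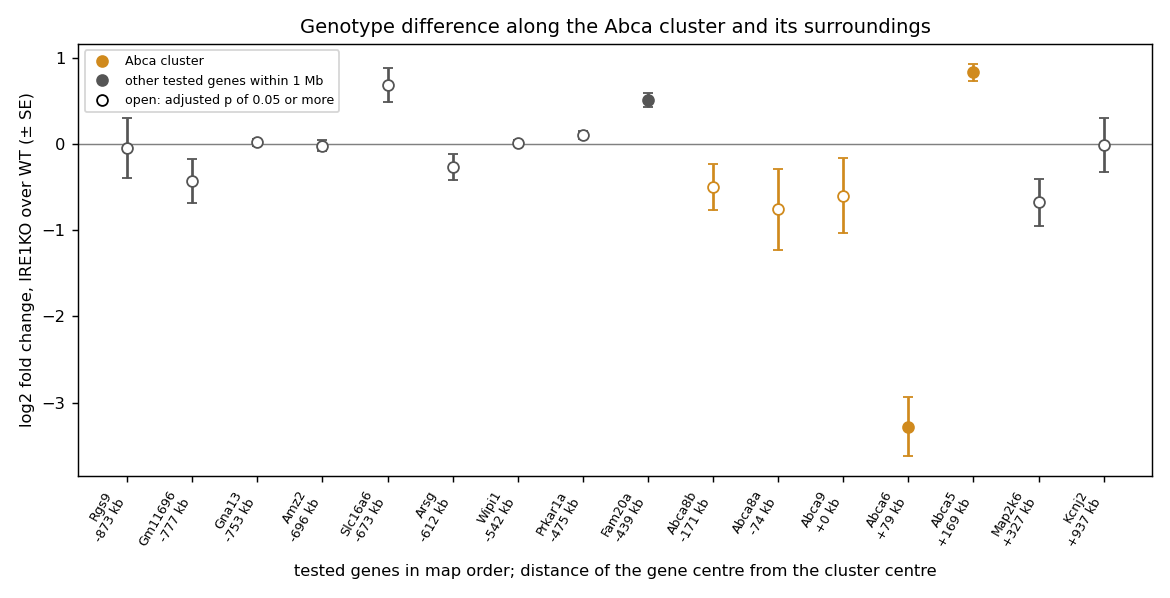
Log2 fold change of IRE1KO over WT with its SE for the 5 Abca genes and the 11 other tested genes within 1 Mb, in map order, with the distance of each gene's centre from the centre of the row. Filled points have an adjusted p under 0.05: Abca6 at -3.28, Abca5 at 0.84 and Fam20a at 0.51.

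Of 11 other ABCA genes 7 were tested. None passed in edgeR (0.634% of all tested genes did) or limma voom (0.117%), and DESeq2 called 1, Abca7 (3.77%). An unadjusted p under 0.05 was found for 4 of the 7, beside 16.5% of all tested genes: Abca2 and Abca7 were on the lower side, and Abca4 (0.49 ± 0.21 SE) and Abca13 (0.54 ± 0.24 SE) on the higher. The median log2 fold change was 0.17, against -0.0050 over all tested genes. Abca1, the cholesterol exporter, averaged 164.5 ± 8.62 CPM (SD, n = 4) over WT and 184.7 ± 21.7 CPM (SD, n = 5) over IRE1KO, with a log2 fold change of 0.17 ± 0.084 SE. Abca7, which moves phospholipid, averaged 22.2 ± 5.31 CPM over WT and 14.9 ± 1.13 CPM over IRE1KO (log2 fold change -0.58 ± 0.15 SE, edgeR adjusted p = 0.124) and passed without WT library 1 (-0.72). For Abca2, a transporter of late endosomes and lysosomes, the value was -0.33 ± 0.12 SE, and it too passed without WT library 1 (-0.44). For Abca3, the surfactant lipid transporter, it was -0.12 ± 0.080 SE. Abca14 and Abca15 had 0 counts in every library.

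Among 24 tested genes of the ABCB, ABCC, ABCD and ABCG families none passed in edgeR or limma voom, 4 had an unadjusted p under 0.05 (16.5% of all tested genes), and DESeq2 called 1, Abcb1a (3.77% of all). The median log2 fold change was -0.11. The 2 genes with the smallest p were Abcc10 and Abcb1a, which encodes a drug efflux pump. Abcc10 averaged 12.7 ± 0.898 CPM (SD, n = 4) over WT and 10.6 ± 0.445 CPM (SD, n = 5) over IRE1KO, and Abcb1a averaged 13.3 ± 6.23 and 6.49 ± 0.844 CPM in the same order. For Abcg1, which works beside Abca1 in sterol export, the log2 fold change was 0.23 ± 0.25 SE.

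**Figure D5:**
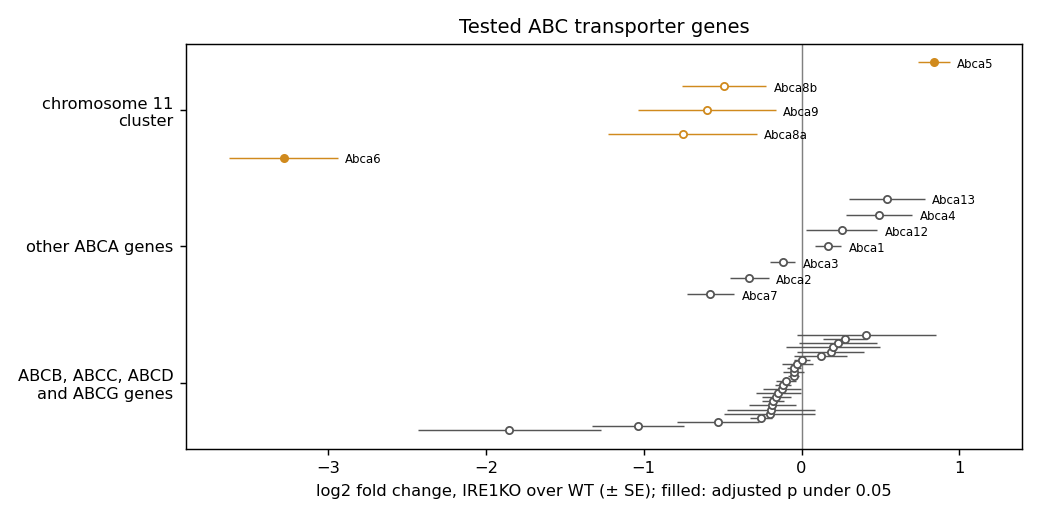
Log2 fold change of IRE1KO over WT with its SE for all tested ABC transporter genes of the lists, in 3 groups. Abca6 (-3.28) and Abca5 (0.84) are the filled points, with an adjusted p under 0.05, and the 7 other ABCA genes lie between -0.58 and 0.54.

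Of 18 tested liver X receptor (LXR) genes and targets, which control sterol export, 1 fell, beside 0.379% of all tested genes that were called lower, and 17 did not pass, with a median log2 fold change of -0.036. The gene that fell was Lpl, the lipoprotein lipase, also in the adipocyte list, by 1.09 ± 0.19 SE on the log2 scale (edgeR adjusted p = 0.0475), from 66.7 ± 19.6 CPM (SD, n = 4) in WT to 31.3 ± 4.38 CPM (SD, n = 5) in IRE1KO. It remained called without WT library 1 (-1.23) and without WT library 4 (-0.91), and leaving out any 1 of the other libraries ended the call, at -1.18 to -1.04. Nr1h2 and Nr1h3, the genes of both LXR proteins, differed by 0.12 ± 0.048 SE and -0.31 ± 0.12 SE on the log2 scale.

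None of 20 tested lysosomal lipid handling genes passed in edgeR, DESeq2 or limma voom, and 3 had an unadjusted p under 0.05, beside 16.5% of all tested genes. The median was -0.037. The smallest p belonged to Psap, the precursor of saposins, with a log2 fold change of -0.18 ± 0.058 SE, and to Hexa, a lysosomal hexosaminidase, with -0.16 ± 0.054 SE. None of 25 tested genes of cholesterol synthesis and uptake passed in any of these tools, and 4 had an unadjusted p under 0.05, with a median of -0.0025. Scap, which escorts the SREBP transcription factors to the Golgi, was at 0.13 ± 0.039 SE and Insig2, which retains them, at -0.13 ± 0.052 SE.

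Genes with profiles like those of the members were looked for over the 9 libraries by the correlation of log2 CPM, and are given as a description, since the libraries and the genotype difference are shared and many genes were compared. Abca6 was most like Spg20 (Pearson r = 0.985), Mbd5 (0.98) and Id1 (0.976), a target of BMP signalling. With each genotype's mean subtracted these values were 0.85, 0.797 and 0.681. Abca5 was most like Grsf1 (r = 0.987), Arf2 (0.976) and Fam185a (0.975), with 0.899, 0.729 and 0.916 after subtraction. Abca9 resembled Zfp521 (0.992) and Mfap2 (0.99), and Abca8a resembled S1pr1 (0.993), Gas1 (0.992) and Cdh11 (0.988). Abca8b was nearest to Rab13 (0.989), Pomt2 (0.987) and Car13 (0.986). For Abca9, Abca8a and Abca8b the values of these genes after subtraction were 0.983 to 0.993.

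With each genotype's mean subtracted, Abca5 did not rise and fall with the other genes of the row over the 9 libraries. In the same values Abca6 varied with Abca9 (r = 0.953) and Abca8a (0.901), and Abca8a with Abca9 (0.977). Abca8b varied with Abca8a (0.87) and Abca9 (0.81) and less closely with Abca6 (0.65). For Abca5 the values were -0.26 against Abca9, -0.36 against Abca8a and -0.0073 against Abca6. Against Abca8b it was -0.75. Of the WT libraries, library 1 was the highest in Abca5 (67.3 CPM) and the lowest in Abca8b (8.63 CPM). In IRE1KO no such opposite course was seen, and library 5 was the lowest in both genes (92.1 and 12.1 CPM). The correlations rest largely on the 4 WT libraries, where WT library 4 was the highest of the row outside Abca5.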

How the data were processed

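RNA from 9 libraries (5 IRE1KO, 4 WT) was measured by polyadenylated, strand-marked RNA-seq in 1 batch, per the labels' protocols. The values the authors deposited are raw counts. STAR, limma and mm10 are named per the submitters' processing notes. How reads were counted, on which annotation and with which strand setting, is not given in the sources used here. Depth was 18784636 to 22028075 counts, and a floor of 3 counts covers counting error only.

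Counts were tested in R 4.3.3 with edgeR 4.0.16 (filterByExpr, TMM, robust quasi-likelihood test, genotype as the single term, Benjamini-Hochberg threshold 0.05), which kept 13712 genes. SE is the log2 fold change divided by the root of the F statistic. Alternatives were DESeq2 1.42.0, limma 3.58.1 voom, other size factors, filters and a replicate block, and leaving out each library. The steps were tested on simulated data. Positions and lengths came from GENCODE M21 (24957 genes matched by identifier), and start regions from RefSeq. Python 3.11.15, pandas 2.3.3, Biopython 1.88 and matplotlib 3.10.9 were used. A pseudocount of 0.5 CPM preceded log2 in correlations.

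The members and gene lists were chosen with earlier results of these data known. The named genes were the 5 members, every tested gene within 1 Mb, in each list up to 4 called genes or the 2 with the smallest p, and for each member the 3 genes most correlated in log2 CPM with a mean of at least 5 CPM. One gene that this rule names is not reported here. Other genes were chosen after their values were seen.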

Additional observations from a re-analysis of the deposited data

How the results depend on the processing

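The 87 calls over all genes became 582 with DESeq2, 16 with limma voom and 45 with no filter on low counts, and ranged from 2 (without IRE1KO library 2) to 1192 (without WT library 1) when 1 library was left out. Of the members, 2 were called in edgeR and DESeq2, 1 in limma voom (Abca5), and 0 to 3 with a library left out. Called genes of the pathway lists numbered 1, against 3 with DESeq2, 0 with limma voom (16 at an unadjusted p under 0.05), 0 with no filter (18 unadjusted) and 0 to 12 with a library left out. Called neighbours numbered 1, against 2 with DESeq2, 0 with limma voom (2 unadjusted) and 0 to 2 with a library left out. With the replicate block edgeR called 0 genes, 0 members, 0 pathway genes and 0 neighbours, with 1596, 2, 7 and 2 at an unadjusted p under 0.05. Deviations of samples with the same number correlated at r = 0.168, -0.227, -0.185 and 0.501, which shows no consistent pairing. In that fit Abca6 was at -3.12 and Abca5 at 0.87 on the log2 scale. Without WT library 4, Abca8a (0.023) and Abca9 (0.11) changed sign; with single libraries left out they ranged from -1.02 to 0.023 and from -0.85 to 0.11. Over the alternatives that kept all libraries Abca6 ranged from -3.29 to -3.12 and Abca5 from 0.84 to 0.87. Coding lengths from a protein table were not run; those of GENCODE were added after seeing the data. Abca6 in IRE1KO rests on 16 to 28 reads a library.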

Other observations

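Without WT library 1, edgeR called 12 of 92 tested genes of the 5 pathway lists (13.0%) beside 8.63% of all genes tested in that fit. At an unadjusted p under 0.05 the same fit had 26 of the 92 genes beside 3916 of 13820 over all, a similar share. Without WT libraries 2, 3 and 4 the calls in these lists numbered 0, 0 and 2, beside 7, 3 and 399 over all tested genes. In these fits edgeR gave an unadjusted p under 0.05 for 11, 9 and 26 of the 92 genes. Over all tested genes the numbers were 2057 of 13790, 1607 of 13777 and 2771 of 13780. Of the 12 genes, 7 were among the 31 tested ABC transporter genes outside the row (22.6%): Abca2, Abca7, Abcb1a, Abcb4, Abcc10 and Abcd2 were lower in IRE1KO, by 0.44, 0.72, 1.25, 2.21, 0.31 and 0.75 on the log2 scale, and Abcb6 was higher by 0.43. Abcb4, which exports phosphatidylcholine into bile, was at 0.358 CPM in WT library 1, within the IRE1KO range of up to 0.957 CPM, and at 1.83 CPM or more in the other WT libraries. Abcd2, a peroxisomal fatty acid transporter, was at 2.71 CPM in WT library 1, at 5.13 CPM or more in the other WT libraries and at up to 4.47 CPM in IRE1KO.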
